A study of Homo sapiens with 11 samples.

Results

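The 40 interferon-stimulated genes described here are genes whose transcription is known to be switched on by interferons. They were chosen by symbol, and all 40 were among the 26485 gene symbols of both count tables. The rule that chose them used no measured value, but the list was made with earlier results of these data known. RNA came from Caki-1-SR cells, a subline of Caki-1, a human clear cell renal cell carcinoma line derived from a skin metastasis, that had become resistant to sunitinib, a drug against VEGF and PDGF receptors. The study's text names the sequenced cells as clone 1, so they represent a single resistant subline. All groups were kept in medium with 1 µM sunitinib. ODC, an optimised combination of repurposed drugs, contained Rapta-C at 2 µM, erlotinib at 1 µM, metformin at 1 µM and parthenolide at 5 µM. Rapta-C is an organometallic ruthenium complex, erlotinib blocks EGFR, metformin is used in type 2 diabetes and parthenolide comes from feverfew. CTRL cells received none of these 4 drugs. There were 3 CTRL and 3 ODC libraries at 24 h, and 2 CTRL and 3 ODC libraries at 2 h. Libraries are named below by the number in their label, which was 1, 3 and 5 for CTRL and 2, 4 and 6 for ODC at 24 h, and 1 and 2 for CTRL and 3, 4 and 5 for ODC at 2 h.

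Interferons are secreted proteins, and most of type I and type III are released when a cell senses foreign nucleic acid. Type I and type III interferons bind receptors that activate the kinases JAK1 and TYK2, and STAT2 and IRF9 then enter the nucleus as part of a complex, ISGF3, that binds the interferon-stimulated response element (ISRE) in front of target genes. Interferon gamma acts through its own receptor and a STAT dimer that binds a different element, called GAS. The target genes encode sensors of viral RNA, the transcription factors that amplify the response, and effectors that block translation, viral entry or viral replication. Many tumour cell lines express part of this set without added interferon.

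Several facts about the libraries bear on the values below. Depth was 17785229 to 20882856 counts per library at 24 h, and 25782895 to 31118349 at 2 h. Levels are given as CPM, which are counts scaled to library size with TMM factors, and the floor of 3 counts lay between 0.146 and 0.168 CPM in the 24 h libraries and between 0.0943 and 0.114 CPM in the 2 h libraries. This floor covers counting error only. The labels carry a different month for each time point without saying what it marks, so time and whatever differed between those months cannot be told apart. The summed level of 8 epithelial and renal carcinoma markers was 6136 to 6806 CPM in CTRL and 4981 to 6007 CPM in ODC at 24 h, without overlap, and 6718 to 6813 CPM in CTRL and 6759 to 7146 CPM in ODC at 2 h. At 24 h 6 of these 8 markers exceeded 3 counts. KRT8 and KRT18, keratins of simple epithelia, had log2 fold changes of -0.62 and -0.71, with adjusted p of 0.202 and 0.128 by edgeR's quasi-likelihood test. VIM, the most abundant of the markers, differed by -0.27, from a mean of 3392 CPM in CTRL to 2788 CPM in ODC. MET differed by -0.02, and PAX8 went the other way, by 0.33. The part of the lower marker sum in the 24 h results was not tested. CA9, a marker of clear cell renal carcinoma, had no more than 1 count in each of the 11 libraries. Of 6 leukocyte markers, 1 exceeded 3 counts in CTRL and 2 in ODC at 24 h, with summed levels of 5.91 to 6.20 CPM in CTRL and 7.43 to 8.10 CPM in ODC. Of 4 endothelial markers none exceeded 3 counts at 24 h, and their summed level was 0 to 0.168 CPM. The 4 fibroblast markers summed to 67.7 to 144 CPM in CTRL and 115 to 169 CPM in ODC at 24 h, with COL3A1 at 0 in all 6.

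CTRL library 1 at 2 h stood apart from the other 10 libraries. COL3A1, a fibroblast collagen, had 1081 counts there and 0 to 6 elsewhere. DCN, another fibroblast gene, had 73 counts against 0 to 3, and KRT19, an epithelial keratin, had 48 against 0 to 3. VWF, an endothelial gene, had 13 counts against 0 to 2, and LYZ, a leukocyte gene, had 13 against 0 to 3. In the CTRL group at 2 h the fibroblast sum therefore ran from 136 to 281 CPM, the endothelial sum from 0.0701 to 1.25 CPM and the leukocyte sum from 13.6 to 16.1 CPM, against 158 to 166, 0.0943 to 0.204 and 13.3 to 16.5 CPM in ODC. Among the interferon-stimulated genes, IFI27 had 23 counts in this library and 0 to 5 in the others, and IFITM1 had 47 against 0 to 24. The part of these transcripts in the 2 h comparison was not tested, and the counts and the named members at 2 h are also given without this library.

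A search of promoters showed what the members share in sequence. RefSeq start sites gave a window of 250 bases before to 50 bases after the start for 31 of the 40 members, including DDX58 under its current symbol RIGI. The ISRE core, searched as GAAANNGAA on both strands, was present in 22 of these 31 windows (71%) and in 2264 of 27305 windows of all genes (8.29%). The GAS letters, searched as TTCNNNGAA on both strands, were present in 7 member windows (22.6%) and in 7.88% of all windows. The ISRE and GAS letters overlapped in the windows of BST2, IFI27 and IFITM1. With 1 more A required after the ISRE core, 21 member windows (67.7%) and 3.65% of all windows held a match. The 9 members whose window held no ISRE core were DDX58, STAT2, IRF1, IRF9, OAS1, SAMD9L, XAF1, HERC6 and PARP9, and of these IRF1, IRF9 and OAS1 held the GAS letters. Only the first listed window of each gene was used. XAF1 and PARP9 had 2 windows each, so a core at their other start site is not excluded. Matching letters describe the window and do not show that a factor bound there.

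The stretches below come from the GRCh38.p14 windows and are shown because they hold the ISRE core of members whose values are described further on. None overlapped an annotated exon of GENCODE release 44. Those of HERC5, LGALS3BP and SAMD9 lie between genes, and that of IFI6 lies within the span of a non-coding gene. The others lie within the span of their own gene but outside its exons. That of IFIT3 also lies within the span of LIPA, and that of IFITM3 within the span of another annotated gene. Each is written 5′ to 3′ on the gene's strand, with the core on either strand in capitals.
ISG15, chr1:1013359-1013429, plus strand: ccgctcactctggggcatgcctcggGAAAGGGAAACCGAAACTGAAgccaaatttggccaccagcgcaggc
IFIT3, chr10:89327817-89327909, plus strand: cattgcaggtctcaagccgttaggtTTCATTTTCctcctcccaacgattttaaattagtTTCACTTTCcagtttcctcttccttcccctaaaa
HERC5, chr4:88456970-88457028, plus strand: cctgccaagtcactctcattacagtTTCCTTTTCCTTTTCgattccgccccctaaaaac
SAMD9, chr7:93118082-93118140, minus strand: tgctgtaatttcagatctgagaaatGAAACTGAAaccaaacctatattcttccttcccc
IFITM3, chr11:320862-320937, minus strand: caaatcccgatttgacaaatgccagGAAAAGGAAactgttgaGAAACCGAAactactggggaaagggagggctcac
IFI27, chr14:94110604-94110674, plus strand: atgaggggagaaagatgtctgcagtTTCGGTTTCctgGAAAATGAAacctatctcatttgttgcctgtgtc
IFI6, chr1:27672315-27672373, minus strand: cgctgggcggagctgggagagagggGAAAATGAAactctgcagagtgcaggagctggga
LGALS3BP, chr17:78979948-78980006, minus strand: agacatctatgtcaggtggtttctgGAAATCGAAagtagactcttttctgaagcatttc
ISG15, IFIT3, HERC5, IFITM3 and IFI27 held more than 1 core in the printed stretch, and their levels in the same cells at 24 h ranged from no more than 3 counts (IFI27) to 92.99 CPM or more (IFITM3 in CTRL).

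The members differed widely in level. Divided by the length of the canonical transcript, the mean level in CTRL at 24 h was highest for LGALS3BP, a secreted glycoprotein, at 496 ± 41.7 CPM per kilobase (SD, n = 3). IFITM3, a membrane protein that blocks fusion of viruses with endosomes, followed at 173 CPM per kilobase, with an SD of 22.7, and these 2 neighbours differed by more than their spread. IFITM2, STAT2, PARP14, DTX3L and IRF1 came next, from 19.7 ± 4.30 for IFITM2 to 14.7 ± 3.35 CPM per kilobase for IRF1 (SD, n = 3), and their order did not exceed the spread between libraries. ISG15, the ubiquitin-like protein that is attached to other proteins during the response, was at 10.9 CPM per kilobase. At the low end, MX2, RSAD2 and IFI27 had no more than 3 counts in any of the 6 libraries at 24 h, as did IFITM1. MX2 and RSAD2 were at or under 3 counts in the 5 libraries at 2 h as well. MX1, an antiviral dynamin-like GTPase and one of the most used markers of type I interferon, had 9, 10 and 2 counts in CTRL and 1, 0 and 10 counts in ODC at 24 h, and an antisense gene overlaps 8.50% of its transcript. XAF1, a promoter of apoptosis, had 1 to 8 counts in the same 6 libraries. A level at or under the floor was not detectable at this depth.

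**Figure D1:**
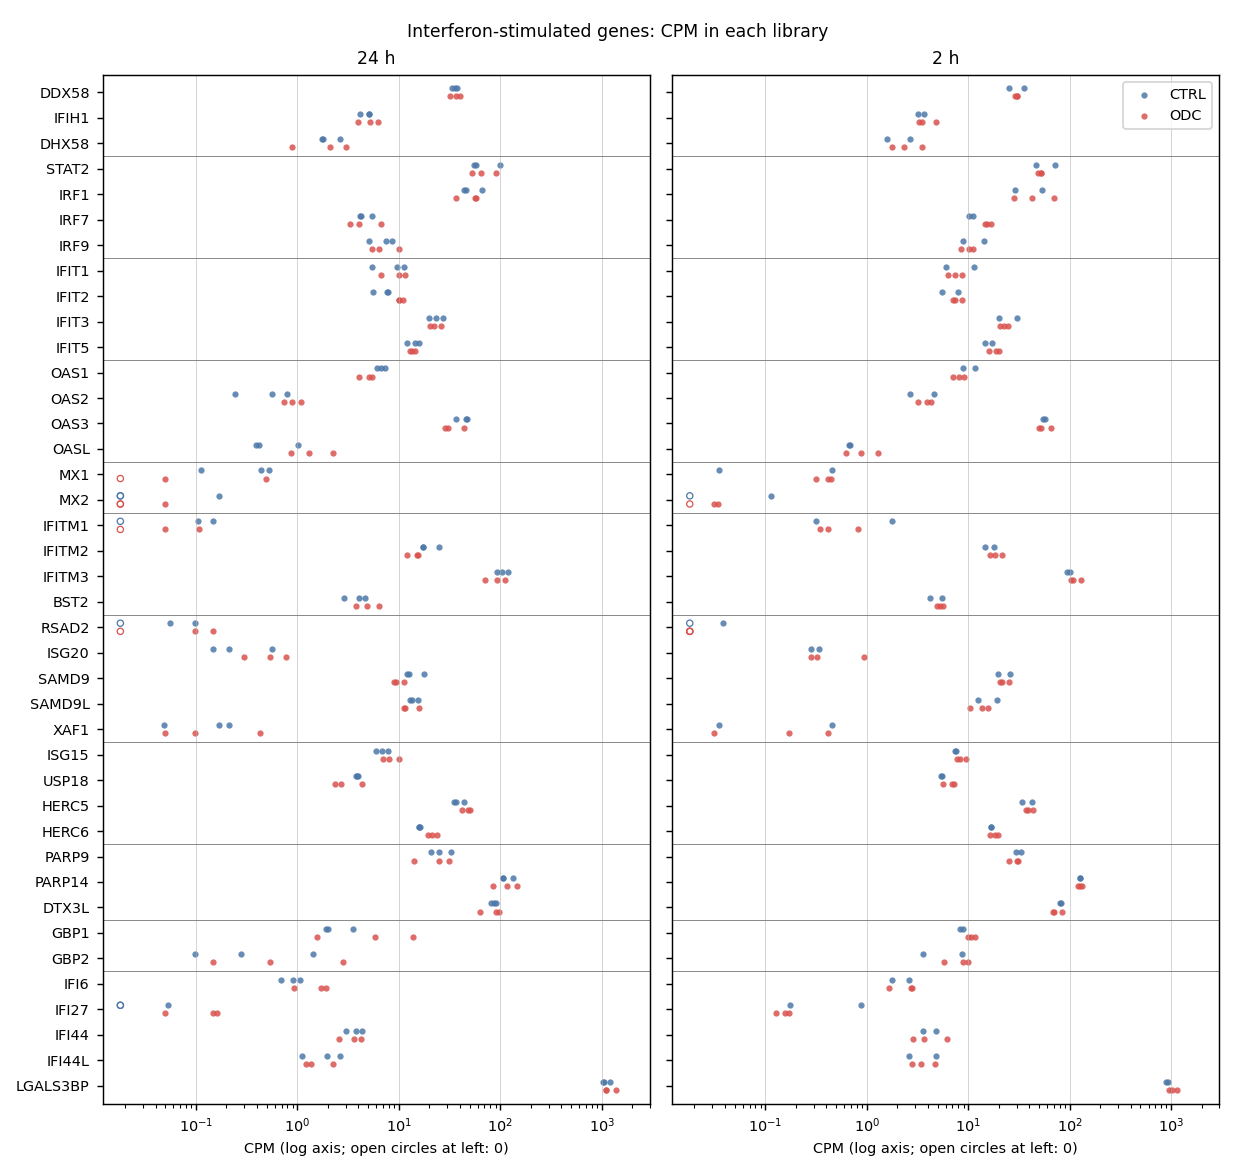
CPM of the 40 interferon-stimulated genes in each library, on a log axis, for 24 h (left) and 2 h (right), with CTRL in blue and ODC in red, 1 point per library and open circles at the left edge for libraries at 0. Lines separate the groups of genes by role, in the order sensors, transcription factors, IFIT, OAS, MX, IFITM and BST2, other effectors, ISG15 system, PARP and DTX3L, guanylate-binding proteins, and IFI genes with LGALS3BP. The red and blue points of most genes overlap, and GBP1 at 24 h spans from 1.56 to 13.7 CPM within ODC.

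After 24 h of ODC no member passed the test, and the median over the members was close to that over all genes. After a filter on low counts 34 members could be tested, and MX1, MX2, IFITM1, RSAD2, XAF1 and IFI27 were left out by it. By edgeR's quasi-likelihood test none of the 34 had an adjusted p under 0.05, against 24 of 12689 genes tested (0.189%), and the smallest adjusted p was 0.206, for HERC6. By the same test at an unadjusted p under 0.05, 3 members were higher in ODC (HERC6, IFIT2 and OASL) and 3 were lower (SAMD9, IFITM2 and OAS1). These counts are 8.82% of the members each, beside 7.20% of all genes that were higher and 5.04% that were lower. With a fold change of at least 2 as well, OASL alone was left, beside 2.35% of all genes. That count of 1 was 0 without ODC library 2 and 3 without ODC library 6 (with GBP1 and IFI6), and the gene was OAS2 without CTRL library 3 and ISG20 without CTRL library 5. It was 2 (OASL and GBP1) with DESeq2, with the joint fit and with the block of adjacent library numbers. The libraries of the 2 groups did not overlap for HERC6 and IFIT2 on the higher side (5.88% of members, 8.50% of all genes) and for SAMD9, IFITM2 and OAS1 on the lower side (8.82% of members, 9.36% of all genes). The median log2 fold change was 0.03 over the members and 0.0009 over all genes tested, with 18 members higher and 16 lower. With library size as the only scaling it was -0.01 over the members, beside -0.0320 over all genes. The sign of the members' median turned with single libraries, from -0.11 without ODC library 4 to 0.19 without ODC library 6. DESeq2 also called no member at an adjusted p under 0.05 and 6 at an unadjusted p, beside 11.9% of all genes. The 95% interval of the fold change lay within 2-fold in either direction for 25 of the 34 members (73.5%) and for 83% of all genes. In bulk RNA a change in the share of cells that express a gene and a change in its RNA per cell cannot be told apart.

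The count of 6 depended on single libraries. Without ODC library 2 it was 2 (HERC6 and IFIT2), beside 9.51% of all genes in that fit. Over the 6 fits that each left out 1 library it ran from 2 to 9, beside 6.98% to 15.6% of all genes. The count was 9 without ODC library 4 (beside 10.1% of all genes). HERC6 and IFIT2 were counted in all 6 of these fits. OASL was not counted without ODC library 2, CTRL library 3 or CTRL library 5, SAMD9 not without ODC library 2, CTRL library 3 or ODC library 6, and IFITM2 not without CTRL library 1, ODC library 2 or ODC library 6. OAS1 was counted only when ODC library 4 was left out. With adjacent library numbers (1 and 2, 3 and 4, 5 and 6) as a block, the count was 9 of 34, with OAS3, GBP1 and IFI6 added, beside 2999 of 12689 genes (23.6%) in the same fit. In that fit 686 genes and no member had an adjusted p under 0.05.

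Among the sensors, DDX58 and IFIH1 encode RIG-I and MDA5, which detect viral RNA in the cytosol, and DHX58 encodes their regulator LGP2. Their log2 fold changes at 24 h were between -0.03 and 0.11. DDX58 had 37.7, 33.8 and 36.0 CPM in CTRL and 36.7, 40.5 and 31.9 CPM in ODC, so that the CTRL libraries lay inside the range of the ODC libraries. Most of its annotated transcript (96.6% of 100-base windows) is shared with an overlapping gene model. Its counts could have been affected if that model was in the annotation used for counting. The transcription factors STAT2, IRF1, IRF7 and IRF9 were between -0.04 and 0.07, and IRF1 has an antisense gene over 16.3% of its transcript. STAT2 ran from 55.6 to 98.8 CPM in CTRL and from 52.2 to 91.97 CPM in ODC, with library 3 highest in CTRL and library 4 highest in ODC. IRF9 shares 92.6% of its windows with an overlapping gene model and carries the same limit.

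IFIT proteins bind viral RNA that lacks the host's cap marks and block its translation. IFIT2 had 7.91, 7.62 and 5.61 CPM in CTRL and 10.9, 10.2 and 10.1 CPM in ODC, and every ODC library was above every CTRL library. The log2 fold change was 0.57 ± 0.17 (SE), with an unadjusted p of 0.0107 and an adjusted p of 0.242 by edgeR's quasi-likelihood test, and its adjusted p ran from 0.0625 to 0.552 over the alternatives. Its neighbours in the same cluster on chromosome 10 were closer to 0, at 0.12 for IFIT1, -0.01 for IFIT3 and -0.02 for IFIT5. IFIT1 ranged from 5.50 to 11.2 CPM in CTRL and from 6.73 to 11.5 CPM in ODC, so that the groups covered the same range.

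The OAS enzymes make short 2′-5′ oligoadenylates that activate RNase L, and OASL is a related protein that enhances RIG-I signalling. The 4 genes had differences of both signs. OASL had 1.02, 0.424 and 0.393 CPM in CTRL and 2.26, 0.861 and 1.32 CPM in ODC. The groups overlapped, since CTRL library 1 was above ODC library 4, and the values rest on 7 to 46 counts. This gave a log2 fold change of 1.26 ± 0.50 (SE), with an unadjusted p of 0.0345 and an adjusted p of 0.357 by edgeR's quasi-likelihood test (0.0555 to 0.658 over the alternatives), and without ODC library 2 the log2 fold change was 0.82. OAS1 had 7.37, 6.67 and 6.06 CPM in CTRL and 5.06, 5.49 and 4.05 CPM in ODC, all lower than in CTRL. On the log2 scale the difference was -0.45 ± 0.19 (SE), with an unadjusted p of 0.0458 and an adjusted p of 0.398 by the same edgeR test (0.135 to 0.838 over the alternatives). An antisense gene overlaps 5.64% of its transcript. OAS3, the most abundant of the family per length, had a log2 fold change of -0.32, and OAS2, at 5 to 20 counts, one of 0.77, and neither had an unadjusted p under 0.05.

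IFITM proteins sit in cell membranes and restrict viral entry, and BST2 (tetherin) holds budding virus at the cell surface. IFITM2 had 24.9, 17.4 and 17.3 CPM in CTRL and 15.3, 15.5 and 12.1 CPM in ODC. Each ODC library was lower than each CTRL library, and CTRL library 1 was the highest of the 6. The fitted log2 fold change was -0.46 ± 0.19 (SE), with an unadjusted p of 0.0402 and an adjusted p of 0.378 by edgeR's quasi-likelihood test (0.0962 to 0.861 over the alternatives), and without CTRL library 1 the log2 fold change was -0.27. IFITM3 differed by -0.17 and BST2 by 0.39 on the log2 scale, and the libraries of both overlapped between groups. The IFITM genes are near-identical copies over parts of their length (8.20% of the windows of IFITM3 are found in IFITM1), so their counts could have been affected.

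SAMD9 and SAMD9L, neighbours on chromosome 7, encode cytoplasmic proteins that restrict poxviruses. SAMD9 had 12.6, 17.7 and 12.1 CPM in CTRL and 9.39, 11.2 and 8.88 CPM in ODC, with no overlap between the groups. This corresponds to a log2 fold change of -0.51 ± 0.19 (SE), with an unadjusted p of 0.0290 and an adjusted p of 0.330 by edgeR's quasi-likelihood test (0.0595 to 0.644 over the alternatives), and without CTRL library 3 the log2 fold change was -0.31. SAMD9L differed by -0.11 and overlapped. ISG20, an RNA exonuclease, had 3 to 10 counts in CTRL and 6 to 16 in ODC and a log2 fold change of 0.84.

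In the ISG15 system, HERC5 is the main ligase that attaches ISG15 to proteins, HERC6 is its closest relative and USP18 removes ISG15 and damps receptor signalling. HERC6 had 15.7, 16.3 and 15.8 CPM in CTRL and 21.2, 24.1 and 19.5 CPM in ODC. The CTRL libraries lay within 1.04-fold of each other and below all ODC libraries. The log2 fold change was 0.46 ± 0.13 (SE), with an unadjusted p of 0.00712 and an adjusted p of 0.206 by edgeR's quasi-likelihood test (0.0558 to 0.642 over the alternatives). HERC5, next to it on chromosome 4, differed by 0.28 with an unadjusted p of 0.0575 and an adjusted p of 0.427 by the same edgeR test. ISG15 differed by 0.28 and USP18 by -0.30, with overlapping libraries, and 36.4% of the windows of USP18 are shared with another gene model. PARP9, PARP14 and DTX3L, whose products cooperate in ADP-ribosylation and ubiquitination during the response, were between -0.14 and 0.02.

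Guanylate-binding proteins are GTPases that attack the membranes of intracellular pathogens. Among the tested members at 24 h, GBP2 had the largest SD between CTRL libraries and GBP1 the largest between ODC libraries, on a log2 scale. GBP1 had 1.90, 3.55 and 2.02 CPM in CTRL and 5.85, 13.7 and 1.56 CPM in ODC. ODC libraries 2 and 4 were above all CTRL libraries and ODC library 6 was below them all. This gave a log2 fold change of 1.52 ± 0.67 (SE), the largest among the members, with an unadjusted p of 0.0549 and an adjusted p of 0.421 by edgeR's quasi-likelihood test (0.0878 to 0.848 over the alternatives). Leaving out ODC library 4 gave 0.58 and leaving out ODC library 6 gave 1.99. GBP2, its neighbour on chromosome 1, had 2, 27 and 5 counts in CTRL and 11, 52 and 3 counts in ODC, so that libraries 3 and 4 were again the highest of their groups. Of the IFI genes, IFI6, a mitochondrial and endoplasmic reticulum protein, differed by 0.81 with an unadjusted p of 0.0551 and an adjusted p of 0.421 by the same edgeR test. It rests on 14 to 36 counts, and 16.4% of its windows are shared with another gene model. IFI44 and IFI44L were at -0.08 and -0.23, and LGALS3BP was at 0.15.

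**Figure D2:**
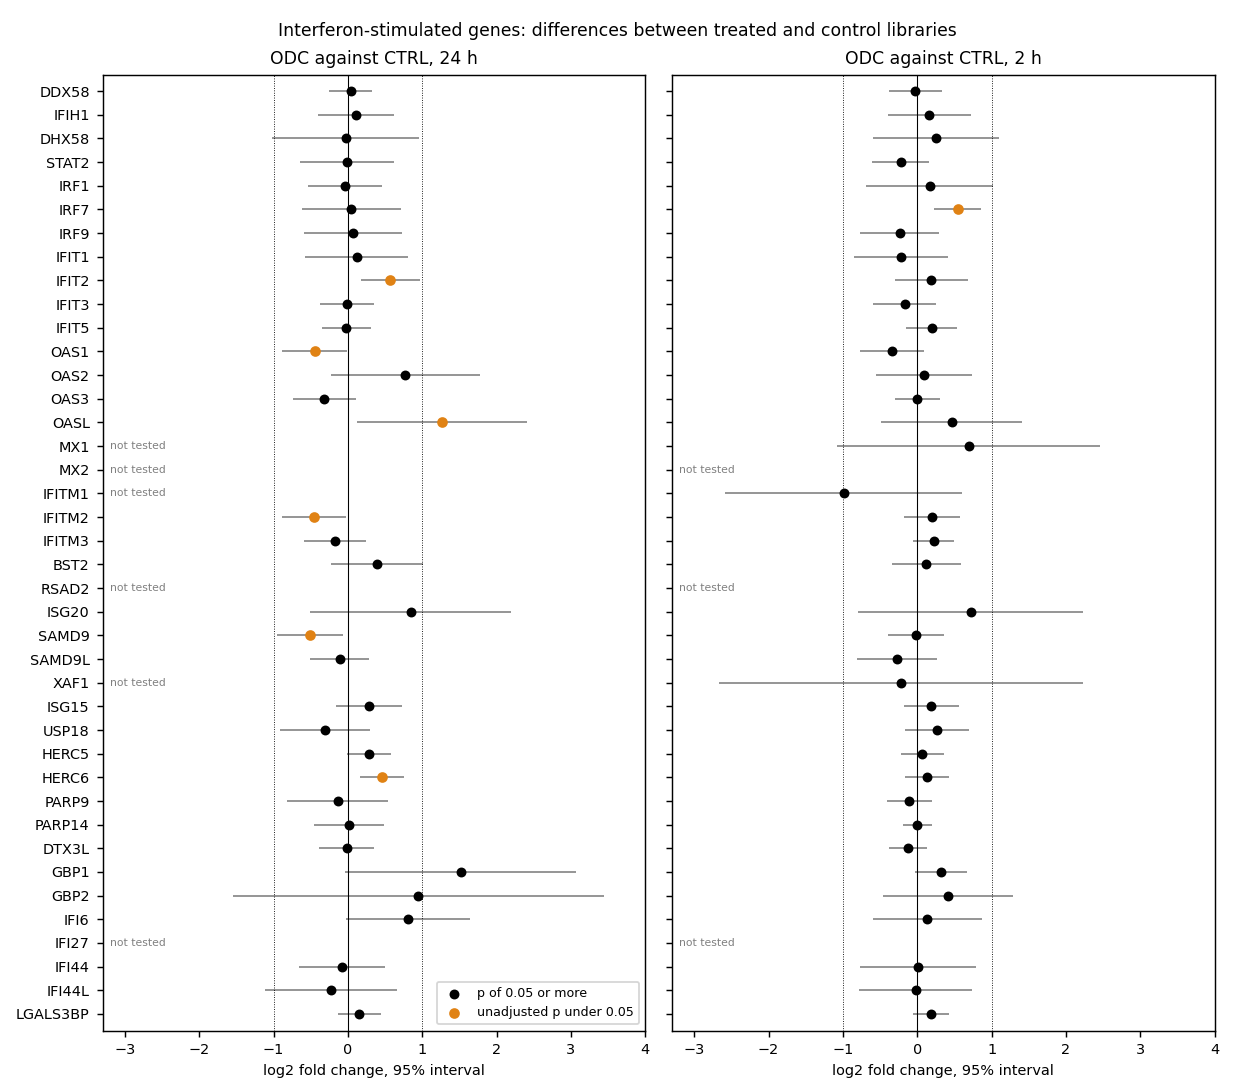
Log2 fold change of ODC against CTRL with its 95% interval for each tested member, at 24 h (left) and 2 h (right). Orange points have an unadjusted p under 0.05 (6 at 24 h and 1 at 2 h), none has an adjusted p under 0.05, and dotted lines mark 2-fold in either direction.

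At 2 h no member passed the test either, and IRF7 alone had an unadjusted p under 0.05. Of the 40 members 37 were tested (all but MX2, RSAD2 and IFI27), and by edgeR's quasi-likelihood test none had an adjusted p under 0.05, beside 0 of all 13332 genes (0%). DESeq2 called no member at an adjusted p under 0.05 and 1 at an unadjusted p, beside 2.18% of all genes. By edgeR's test at an unadjusted p under 0.05, 1 of 37 members was higher (1.47% of all genes) and 0 were lower (0.870% of all genes). With a fold change of at least 2 added, the count was 0 (0.308% of all genes). Every ODC library was above both CTRL libraries for 6 members (16.2%, beside 7.91% of all genes), namely IRF7, GBP1, LGALS3BP, IFITM3, USP18 and ISG15, and below both for 0 (7.24% of all genes). The median log2 fold change was 0.12 over the members and -0.006 over all genes, with 23 higher and 14 lower, and for 29 of 37 the 95% interval lay within 2-fold in either direction (78.4%, beside 85.1% of all genes).

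These counts turned on the CTRL libraries. CTRL library 1 was above CTRL library 2 for 30 of 37 members. Without CTRL library 1 the median log2 fold change was 0.28, and without CTRL library 2 it was -0.09. Compared with CTRL library 2 alone, all ODC libraries were higher for 23 members (62.2%, beside 23.3% of all genes) and lower for 0 (23.6% of all genes). At an unadjusted p under 0.05, edgeR's test counted 3 members without CTRL library 1 (IRF7, MX1 and GBP2), beside 2.51% of all genes in that fit, and 9 without CTRL library 2 (STAT2, IRF7, IRF9, IFIT1, IFIT3, OAS1, IFITM1, SAMD9L and IFI27), beside 8.72% of all genes in that fit. With either CTRL library left out, CTRL is a single library that is assumed to vary like the ODC libraries, so these fits say little about stability. IRF7 was counted in these fits and with each ODC library left out.

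IRF7, the factor that drives most of the later interferon alpha genes, had 11.2 and 10.2 CPM in CTRL and 15.4, 16.8 and 14.5 CPM in ODC at 2 h. All ODC libraries were higher than both CTRL libraries. The log2 fold change was 0.54 ± 0.14 (SE), with an unadjusted p of 0.00436 and an adjusted p of 1 by edgeR's quasi-likelihood test, and the adjusted p ran from 0.526 to 1 over the alternatives. Without CTRL library 1 the log2 fold change was 0.62. At 24 h IRF7 had 4.15, 5.45 and 4.21 CPM in CTRL and 3.29, 6.73 and 4.10 CPM in ODC, with a log2 fold change of 0.05. The difference between the 2 effects was -0.51 ± 0.34 (SE), with an adjusted p of 0.956 by edgeR's test.

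The other members with the smallest p at 2 h had smaller or less certain differences. GBP1 had 8.32 and 8.80 CPM in CTRL and 9.93, 11.6 and 10.6 CPM in ODC, a log2 fold change of 0.32 ± 0.15 (SE). All ODC libraries were above CTRL, and the highest was 1.17 times the lowest within ODC, where at 24 h that ratio was 8.79. LGALS3BP had 902 and 928 CPM in CTRL and 951, 1015 and 1154 CPM in ODC, a log2 fold change of 0.18 ± 0.10 (SE). IFITM3 had 101 and 93.5 CPM in CTRL and 103, 107 and 129.6 CPM in ODC, a log2 fold change of 0.22 ± 0.12 (SE). OAS1 was in the opposite direction, with 11.7 and 8.84 CPM in CTRL and 9.11, 7.14 and 8.04 CPM in ODC and a log2 fold change of -0.34 ± 0.19 (SE). Without CTRL library 1 the log2 fold changes were 0.29 for GBP1, 0.17 for LGALS3BP, 0.28 for IFITM3 and -0.12 for OAS1, which was -0.52 without CTRL library 2. Without ODC library 5 those of LGALS3BP and IFITM3 were 0.10 and 0.11. Their unadjusted p ran from 0.0649 for GBP1 to 0.1104 for IFITM3, and each had an adjusted p of 1 by edgeR's quasi-likelihood test.

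The 2 largest fold changes at 2 h rested on few counts. IFITM1 had 1.79 and 0.316 CPM in CTRL and 0.346, 0.418 and 0.815 CPM in ODC, a log2 fold change of -0.99 ± 0.69 (SE). The CTRL value was set by library 1, and without it the log2 fold change was 0.73. For IFITM1, 50.1% of the windows are shared with an overlapping gene model. ISG20 had 9 and 8 counts in CTRL and 9, 10 and 28 in ODC, a log2 fold change of 0.72 ± 0.66 (SE), with ODC library 5 the highest. Without CTRL library 1 it was 0.87. Both had an adjusted p of 1 by edgeR's quasi-likelihood test.

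The effects at 24 h and at 2 h were compared in a joint fit, in which 36 members were tested. By edgeR's quasi-likelihood test no member had an adjusted p under 0.05 (0.0150% of all genes did), and DESeq2 called none. At an unadjusted p under 0.05 the edgeR and DESeq2 tests each called 1 of 36, beside 5.93% of all genes in edgeR, and this was IFITM2. It was lower in ODC at 24 h and had a log2 fold change of 0.20 at 2 h, from 18.1 and 14.8 CPM in CTRL to 18.4, 16.4 and 21.7 CPM in ODC. The difference between the effects was -0.67 ± 0.27 (SE), with an unadjusted p of 0.0269 and an adjusted p of 0.758 by edgeR's test. Over all libraries left out in turn the count ran from 0 to 6. It was 6 when ODC library 4 at 24 h was left out (beside 6.17% of all genes in that fit). It was 2 without CTRL library 5 (beside 6.43%) or ODC library 6 (beside 7.86%) at 24 h. It was 0 without CTRL library 1 at 24 h (beside 4.07%) or ODC library 5 at 2 h (beside 5.28%). IFITM2 was also lost without ODC library 6 at 24 h (MX1 and GBP1 were counted) and without CTRL library 2 at 2 h (IFI27 was counted).

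The levels at the time points were also set side by side. For 7 of 36 members (19.4%, beside 14.0% of all genes) every 2 h library was above every 24 h library, and the reverse held for 0 members (13.0% of all genes). The 7 were SAMD9, USP18, IRF7, OAS3, OAS2, GBP2 and IFITM1. GBP2 lay between 0.0976 and 2.80 CPM in the 24 h libraries and between 3.58 and 9.90 CPM in the 2 h libraries. OAS2 lay between 0.244 and 1.08 CPM at 24 h, and its 2 h libraries held 2.67 to 4.56 CPM. Without CTRL library 1 at 2 h the same 7 members were above, and DDX58 and STAT2 were below (5.56%, beside 15.2% of all genes). Because the labelled month differed with time, these level differences are given as values only.

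The members varied together between libraries of the same group. In ODC at 24 h, library 4 was the highest of the 3 for 25 of 34 members (73.5%, beside 35.3% of all genes) and library 6 was the lowest for 24 (70.6%, beside 36.3%). Averaged over the members on the scale log2(CPM + 0.5), library 4 was 0.26 above and library 6 was 0.28 below the group mean, while all genes averaged 0.01 and -0.003. In CTRL at 24 h, library 3 was the highest for 18 of 34 members (52.9%, beside 38.5% of all genes), and library 5 was the highest for 3 (8.82%, beside 30.2%). The mean deviations of CTRL libraries 1, 3 and 5 were -0.003, 0.12 and -0.11. Libraries 3 and 4, which carry adjacent numbers, were both the highest of their groups for 15 of 34 members (44.1%, beside 23.5% of all genes). CTRL library 1 and ODC library 4, which are not adjacent, were both the highest for 9 members (26.5%, beside 5.45% of all genes). The other adjacent pairs held smaller shares of members than of all genes, with 11.8% beside 13.8% for libraries 1 and 2 and 2.94% beside 19.3% for libraries 5 and 6. The 15 members highest in libraries 3 and 4 included STAT2, IRF7, IRF9, OAS2, OAS3, SAMD9, ISG15, HERC6, PARP9, PARP14, GBP1, GBP2, IFI6 and LGALS3BP.

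The same held at 2 h, where CTRL library 1 was the higher for 30 of 37 members (81.1%, beside 50.5% of all genes), with a mean deviation of 0.19. ODC library 5 was the highest for 24 of 37 (64.9%, beside 31.8% of all genes), with a mean deviation of 0.14. IRF1 departed from this pattern, with 28.2, 69.4 and 42.7 CPM in ODC libraries 3, 4 and 5. The median SD between libraries of a member, on the log2(CPM + 0.5) scale, was 0.23 in CTRL and 0.33 in ODC at 24 h, beside 0.16 and 0.18 over all genes, and 0.26 in CTRL and 0.18 in ODC at 2 h, beside 0.13 and 0.13. The members also had lower counts, with a median of 152 counts per library in CTRL at 24 h beside 558 over all genes, and the part of the lower counts in this spread was not tested. Genes in 1 library are not independent of each other, so these shares are descriptions of the libraries.

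**Figure D3:**
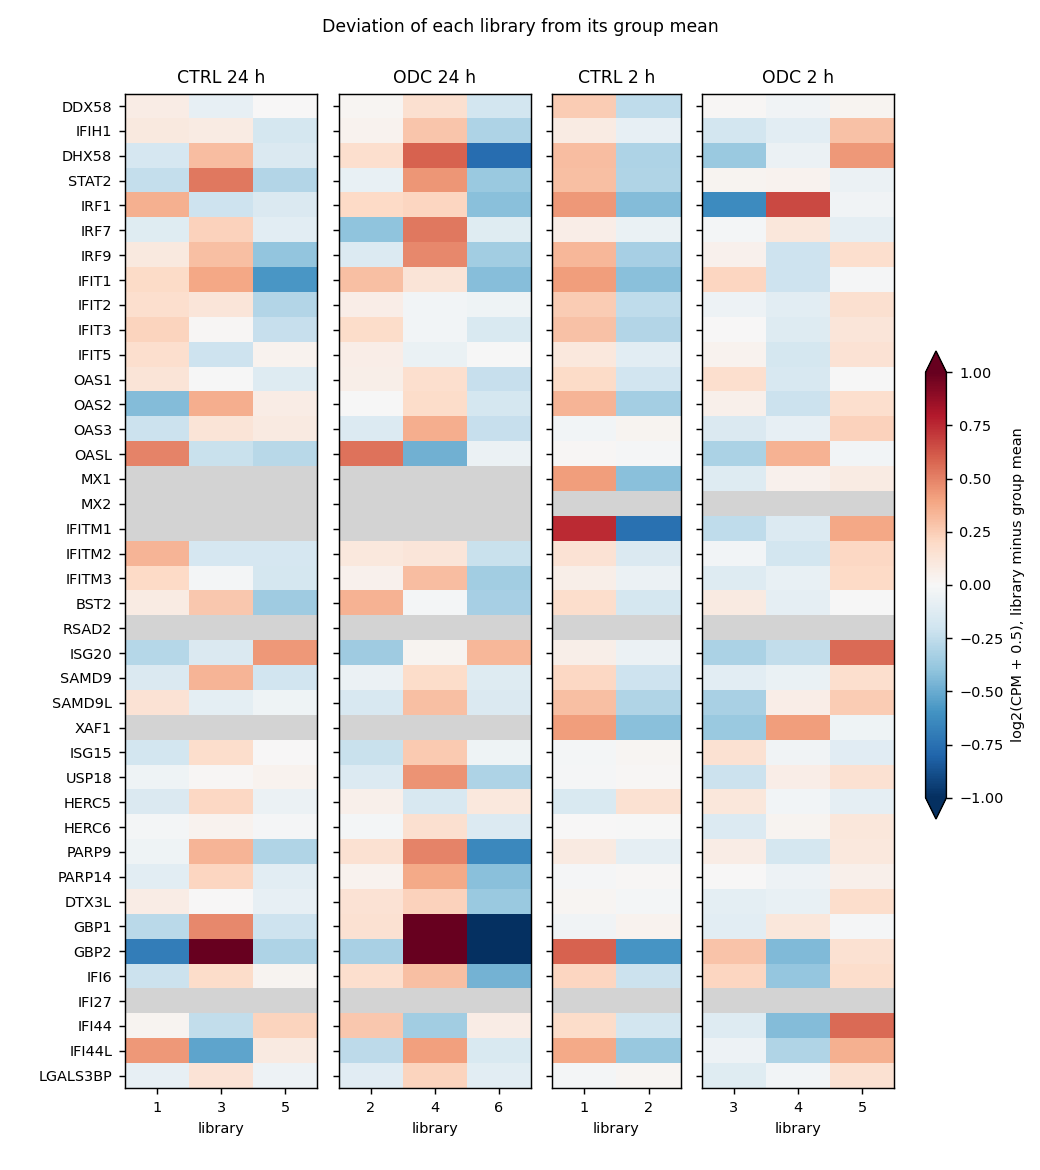
Deviation of each library from its group mean on the scale log2(CPM + 0.5), for each tested member (rows) and library (columns) in CTRL and ODC at 24 h and at 2 h, with red above and blue below the group mean, the darkest colours for deviations of 1 or more, and grey for members not tested. Most of the column of ODC library 4 at 24 h is red and most of the column of ODC library 6 is blue, and at 2 h the column of CTRL library 1 is mostly red.

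Upstream of the members, the 9 interferon genes listed were low or undetected, and IFNA1 was the only interferon alpha gene among them. Only IFNE passed the filter, with 0.147 to 0.781 CPM at 24 h. At 2 h IFNE had 1.37 and 0.421 CPM in CTRL and 0.628, 0.257 and 0.339 CPM in ODC, a log2 fold change of -1.11 ± 0.60 (SE). IFNA1, IFNK, IFNG, IFNL2, IFNL3 and IFNL4 had a mean of 0 in all 4 groups. Of the 41 pathway genes 30 were tested at 24 h and 31 at 2 h, and none had an adjusted p under 0.05 by edgeR's quasi-likelihood test at either time. At an unadjusted p under 0.05 the test counted 3 higher (10%, beside 7.20% of all genes) and 1 lower (3.33%, beside 5.04%) at 24 h. At 2 h it counted 1 higher (3.23%, beside 1.47% of all genes) and 0 lower (beside 0.870%). The 3 that were higher at 24 h were receptor chains, and all 5 receptor genes tested then had a log2 fold change above 0, from 0.22 to 0.69. IL10RB, a chain of the type III receptor that also serves interleukin-10, had 24.4, 32.5 and 26.2 CPM in CTRL and 48.0, 51.7 and 32.8 CPM in ODC. On the log2 scale the difference was 0.69 ± 0.20 (SE), with an unadjusted p of 0.00781 and an adjusted p of 0.214 by edgeR's quasi-likelihood test. Its adjusted p was 0.0374 at the lowest over the alternatives and was under 0.05 with DESeq2 and with adjacent library numbers as a block. IFNLR1, the partner chain that is specific to type III interferon, had a mean of 0.0176 CPM in CTRL and 0 in ODC at 24 h.

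IFNGR1, the ligand-binding chain of the interferon gamma receptor, had 26.9, 26.3 and 34.8 CPM in CTRL and 37.3, 41.4 and 38.1 CPM in ODC, without overlap. The fitted log2 fold change was 0.43 ± 0.14 (SE), with an unadjusted p of 0.0148 and an adjusted p of 0.264 by edgeR's quasi-likelihood test. IFNAR2, a chain of the type I receptor, had 20.9, 24.3 and 21.6 CPM in CTRL and 31.4, 46.1 and 22.9 CPM in ODC, and ODC library 6 lay below CTRL library 3. This corresponds to a log2 fold change of 0.61 ± 0.24 (SE), with an unadjusted p of 0.0354 and an adjusted p of 0.362 by the same edgeR test, and without ODC library 4 the log2 fold change was 0.29. TMEM173, which encodes STING, the relay of cytosolic DNA sensing, was lower in every ODC library, at 26.9, 30.2 and 27.9 CPM beside 33.1, 38.0 and 35.0 CPM in CTRL. The log2 fold change was -0.30 ± 0.11 (SE), with an unadjusted p of 0.0255 and an adjusted p of 0.316 by edgeR's test. Among the 30 pathway genes tested at 24 h, libraries did not overlap for 2 on the higher side (6.67%, beside 8.50% of all genes). On the lower side they did not overlap for 2 (6.67%, beside 9.36%). With the block of adjacent numbers the unadjusted count was 7 of 30 (beside 23.6% of all genes in that fit). The adjusted count was 1, beside 686 of all genes. Without ODC library 6 the unadjusted count was 9 (beside 15.6% of all genes in that fit). It was 2 without CTRL library 1 (beside 6.98% of all genes) or without ODC library 2 (beside 9.51%). At 2 h TICAM1, the TLR3 adaptor also called TRIF, had 8.13 and 10.7 CPM in CTRL and 12.7, 13.2 and 14.2 CPM in ODC, with a log2 fold change of 0.50 ± 0.16 (SE), an unadjusted p of 0.0156 and an adjusted p of 1 by the same edgeR test. Without CTRL library 1 or without ODC library 5 it was not counted (log2 fold change of 0.32 without CTRL library 1), and the count was 2 without CTRL library 2 (with IFNE) or without ODC library 4 (with SOCS3).

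A list of 50 further genes known to respond to interferon was read from the same fits, and 40 of them were tested at 24 h. None had an adjusted p under 0.05 by edgeR's quasi-likelihood test, and 9 had an unadjusted p under 0.05 (6 higher, 3 lower), beside 1553 of all 12689 genes (12.2%). Over all genes that test called 24 at an adjusted p. DESeq2 called 4 at an adjusted p under 0.05 (TAP1, IFI30, APOL1 and TRIM22), beside 386 of all 12689 genes. The joint fit of all libraries also gave 4, beside 186 of 13333 genes. The block of adjacent numbers gave 7 (TAP1, IFI30, APOL1, TRIM22, WARS, PLSCR1 and APOL6), beside 686 of 12689 genes. Members and these further genes thus stand side by side as 6 of 34 and 9 of 40 at an unadjusted p under 0.05, and the difference between the lists was not tested. TAP1, which carries peptides to MHC class I molecules, had 22.7, 26.4 and 28.2 CPM in CTRL and 51.5, 57.7 and 42.2 CPM in ODC. This gave a log2 fold change of 0.99 ± 0.15 (SE), with an unadjusted p of 0.00018 and an adjusted p of 0.0655 by edgeR's test (4.05e-06 to 0.294 over the alternatives, 0.0155 with the block). IFI30, a lysosomal thiol reductase of antigen processing, had 6.64, 6.99 and 9.37 CPM in CTRL and 16.2, 21.0 and 13.95 CPM in ODC. On the log2 scale the difference was 1.17 ± 0.21 (SE), with an unadjusted p of 0.000539 and an adjusted p of 0.0964 by the same test, or 0.0282 with the block.

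APOL1, an apolipoprotein that lyses trypanosomes, had 49.1, 58.0 and 60.7 CPM in CTRL and 101, 163 and 86.7 CPM in ODC. The fitted log2 fold change was 1.08 ± 0.23 (SE), with an unadjusted p of 0.00159 and an adjusted p of 0.125 by edgeR's quasi-likelihood test, or 0.0261 with the block. TRIM22, a ubiquitin ligase, had 18.01, 19.5 and 18.5 CPM in CTRL and 38.1, 34.5 and 22.6 CPM in ODC. This corresponds to a log2 fold change of 0.78 ± 0.20 (SE), with an unadjusted p of 0.00393 and an adjusted p of 0.165 by the same test, or 0.0426 with the block. For these 4 genes every ODC library was above every CTRL library. Among the 40 further genes tested this held for 6 (15%, beside 8.50% of all genes), and the reverse held for 3 (7.5%, beside 9.36%). In the other direction, WARS, the cytoplasmic tryptophanyl-tRNA synthetase, differed by -0.54 ± 0.17 (SE) and PLSCR1, a phospholipid scramblase, by -0.48 ± 0.15 (SE), with adjusted p of 0.246 and 0.259 by edgeR's test. With the block their adjusted p were 0.0282 and 0.0390. Without ODC library 6 the adjusted count was 2 (TRIM22 and TAP1), beside 70 of all 12836 genes in that fit. The unadjusted count was then 15, beside 15.6% of all genes. At 2 h 43 of these genes were tested and PARP10 alone had an unadjusted p under 0.05 (0.0294, adjusted p of 1 by edgeR's test), with a log2 fold change of 0.35 ± 0.13 (SE). PARP10, a mono-ADP-ribosyltransferase, had 42.0 and 39.3 CPM in CTRL and 46.3, 49.8 and 59.4 CPM in ODC, and its log2 fold change was 0.41 without CTRL library 1. It was not counted without CTRL library 2 or without ODC library 5. The count was 2 without CTRL library 1 or ODC library 3, 3 without CTRL library 2 or ODC library 4, and 0 without ODC library 5.

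The mean CTRL levels of TAP1, IFI30, APOL1 and TRIM22 were 38.3, 19.5, 90.2 and 54.3 CPM at 2 h, beside 25.7, 7.67, 56.0 and 18.7 CPM at 24 h. Every 2 h library was above every 24 h library for 8 of 43 further genes, TRIM22 among them (18.6%, beside 14.0% of all genes). The reverse held for 1 (2.33%, beside 13.0%). Because the labelled month differed with time, these levels are given as values only. For the contrast of the 24 h with the 2 h effect, edgeR's test gave an unadjusted p under 0.05 for 6 of 43 further genes (14%, beside 5.93% of all genes) and an adjusted p under 0.05 for none, with the smallest adjusted p at 0.597.

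**Figure D4:**
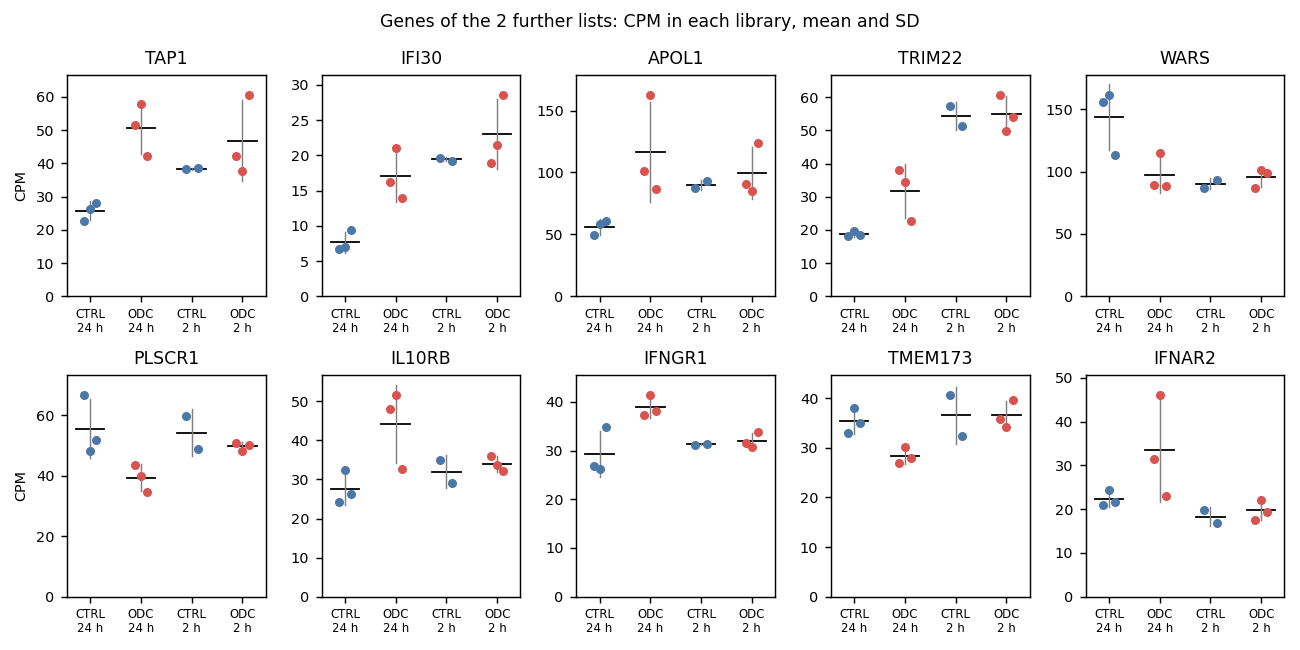
CPM of the genes outside the 40 members that the naming rule selected at 24 h, with 1 point per library, the group mean as a horizontal line and the SD as a vertical line, CTRL in blue and ODC in red, each axis starting at 0. TAP1, IFI30, APOL1, TRIM22, IL10RB and IFNGR1 have every ODC point above every CTRL point at 24 h, and at 2 h none of these 6 has separate groups. At 24 h such separation on the higher side held for 15% of the further genes tested and 6.67% of the pathway genes tested, beside 8.50% of all genes.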

How the data were processed

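Messenger RNA was sequenced from 11 libraries of Caki-1-SR cells (stranded mRNA kit, single-end reads on an Illumina sequencer, per the study's methods). Reads had been aligned to hg38 with STAR, and HTSeq 0.9.1 had assigned them to genes. The count tables were deposited unnormalized and unfiltered. The study's methods and the submitters' processing notes give different STAR versions (2.7.0f in the notes), and whether counting used strand is not given in the sources used here.

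From these counts, ODC and CTRL were compared with edgeR 4.0.16 in R 4.3.3 (earlier quasi-likelihood method, two-sided, TMM factors, filterByExpr at its settings of 10 counts and 15 in total), separately at 24 h and at 2 h, with Benjamini-Hochberg adjustment over all genes tested. The difference between the effects was a contrast in a joint fit of 11 libraries. Alternatives were another filter, RLE scaling, library size only, the newer quasi-likelihood method, DESeq2 1.42.0, a joint fit, a block of adjacent library numbers at 24 h and each library left out in turn. CPM, SD and spread came from TMM-scaled counts of the joint filter. The labels do not say that libraries came from separate cultures, so p-values measure the spread between these libraries. Replicates of a group differed by far more than sampling noise (chi-square per gene of 19.7 or more).

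The labels state no pairing. Deviations from the group means of adjacent numbers at 24 h correlated at 0.27, 0.63 and 0.49 within pairs over all genes. Of the pairs that are not adjacent, libraries 1 and 6 correlated at 0.245, and the others ran from -0.571 to -0.00458. Deviations cancel out within a group, so these correlations are not independent of each other. Where the block changed an adjusted call or moved a count by more than 1.5 times, the blocked call, count or value is printed.

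The members and gene lists were chosen with earlier results of these data known. Full values go to the 6 tested members with the smallest p and the 2 with the largest absolute log2 fold change in each comparison, and to at most 6 genes of the other lists with an unadjusted p under 0.05. Positions and transcript lengths are from GENCODE release 44 (hg38), promoter windows from RefSeq (GRCh38.p14). The tests were tested on simulated data. Some single genes are left out of the text.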

Additional observations from a re-analysis of the deposited data

How the results depend on the processing

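Depth and 2 or 3 libraries a group limit low-count members most, such as GBP2 and ISG20, whose intervals span more than 2-fold. No member had an adjusted p under 0.05 at 24 h, at 2 h or in their difference under any alternative run, and scaling, the newer quasi-likelihood method, DESeq2 and the joint fit left the members' counts at an unadjusted p within 1.5 times. Including every gene with at least 1 count gave 2 members at 2 h, 2 in the difference, 2 further genes at 24 h (adjusted) and 2 at 2 h (unadjusted). For pathway genes at 24 h, DESeq2 and the replicate block of adjacent numbers each gave 1 adjusted call, and the block gave 7 unadjusted. For further genes at 24 h the adjusted count was 4 with DESeq2, 4 with the joint fit and 7 with the block. At 2 h their unadjusted count was 2 with library size only and 0 with the joint fit. With a fold change of at least 2 as well, members at 24 h were 1, but 2 with DESeq2, the joint fit, the block or every gene. The block changed no other count of these lists by more than 1.5 times, and the cause was not tested. Over all genes the adjusted count at 24 h was 24, against 92 with every gene, 386 with DESeq2, 186 with the joint fit, 686 with the block and 2 to 70 with a library left out. At 2 h it was 0, against 1 with DESeq2 and 42 without CTRL library 2. With single libraries left out, unadjusted counts ran from 2 to 9 for members at 24 h, 1 to 9 at 2 h and 0 to 6 in the difference, 2 to 9 and 0 to 2 for pathway genes at 24 h and 2 h, and 6 to 15 and 0 to 3 for further genes. Their adjusted count at 24 h ran from 0 to 2. Over all genes the unadjusted share ran from 6.98% to 15.6% in the fits at 24 h with a library left out. The members' median at 24 h ran from -0.11 to 0.19 and that at 2 h from -0.0934 to 0.284. IFITM1 at 2 h reversed to 0.73 without CTRL library 1 and ran from -1.76 to 0.73.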
